A study of Mus musculus with 8 samples.

Results

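The MHC class II antigen presentation genes are described here by their RNA level in the liver of aged obese female mice with and without dietary docosahexaenoic acid (DHA), an omega-3 fatty acid. They are 9 genes, given by symbol, of the 56884 genes in the count tables: H2-Aa, H2-Ab1, H2-Eb1, H2-DMa, H2-DMb1, H2-DMb2, H2-Oa, Cd74 and Ciita. In the DIO + DHA group, 6 of the 9 were lower, at 37.4% to 45.1% of the mean of the DIO group. These were the 3 classical chains H2-Aa, H2-Ab1 and H2-Eb1, the invariant chain Cd74 and the peptide exchange chains H2-DMa and H2-DMb1. None was called higher, H2-DMb2 and Ciita did not pass the test, and H2-Oa had too few counts to be tested.

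MHC class II molecules are pairs of an alpha and a beta chain that display peptides from engulfed proteins to CD4+ T cells. Cd74, the invariant chain, escorts the new pair to the endosome and blocks its groove until cathepsins digest it, after which the H2-DM pair swaps the remaining fragment for an antigen peptide and the H2-O pair holds H2-DM back. Ciita, the class II transactivator, is the coactivator on which transcription of these genes depends, and in the liver they are known from Kupffer cells, other macrophages, dendritic cells, B cells and sinusoidal endothelial cells.

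All mice were C57BL/6J females that were fed from 2 months of age on a diet in which lipids gave 45% of the energy, for 4 months before the groups were formed. The 3 DIO mice (replicates 1, 4 and 5) stayed on that diet until they were 18 months old. In the diet of the 5 DIO + DHA mice (replicates 1, 2, 4, 5 and 6), 15% by weight of the lipids was exchanged for a fish oil concentrate holding 683.4 mg DHA and 46.7 mg EPA per g, up to the same age. Both groups were thus old and obese, and there was no lean or young control. From each mouse 1 whole-liver library was made, all 8 libraries carry the same batch label, and they held 1723800 (DIO replicate 1) to 5690347 counts. Levels are given in CPM, the counts of a gene per 1000000 counts of the library after TMM scaling, and differences as the log2 fold change of DIO + DHA over DIO. A gene is called lower or higher where edgeR's quasi-likelihood test gave p under 0.05 after Benjamini-Hochberg adjustment over the 12412 genes that passed the count filter. Among all these, 904 genes (7.28%) were called lower and 979 (7.89%) higher.

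The 7 chain genes lie together on chromosome 17, and class II genes are known to share a pair of promoter elements called the X box and the Y box, bound by the RFX and NF-Y factors to which Ciita attaches. Promoters from RefSeq (GRCm38.p6, 250 bases before to 50 after each start) were found for 6 of the 9 genes, and not for H2-Ab1, Cd74 and Ciita. The stretches below end at the Y box letters ATTGG, the reverse complement of CCAAT, and begin 60 bases before them. Their letters were placed on GRCm39 by exact match. Capitals mark ATTGG and, where present, the X box letters CCNNGNAAC or the looser AACNNATG, a form chosen after the sequences had been seen. For H2-DMb1, whose window is annotated exon over 63 of 65 bases, 30 bases from the X box letters on are shown.
H2-Aa (chr17:34506841-34506905, minus strand): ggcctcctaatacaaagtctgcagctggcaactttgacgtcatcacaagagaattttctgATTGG
H2-Eb1 (chr17:34524722-34524786, plus strand): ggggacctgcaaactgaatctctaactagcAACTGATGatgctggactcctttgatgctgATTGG
H2-DMb1 (chr17:34372067-34372096, plus strand): CCTAGTAACTGATGatgctaggctgattca
H2-DMb2 (chr17:34364073-34364137, plus strand): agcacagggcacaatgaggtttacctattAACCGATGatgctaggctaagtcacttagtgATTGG
H2-Oa (chr17:34311250-34311314, plus strand): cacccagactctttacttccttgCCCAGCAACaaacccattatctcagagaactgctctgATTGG

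ATTGG on the gene's strand was present in all 6 genes with a promoter, its first base 48 bases upstream of the start in H2-Aa, 59 in H2-Eb1, 61 in H2-DMb1, 90 in H2-DMb2 and 43 in H2-Oa. In H2-DMa it was only in the second of 2 listed promoters, 198 bases upstream. Searched on both strands, CCAAT is present in 37.4% of all 32851 promoters of the table, CCNNGNAAC in 15.1% and AACNNATG in 8.86%. CCNNGNAAC was found in 3 of the 6 genes, H2-DMa, H2-DMb1 and H2-Oa, and AACNNATG, which can overlap it by 3 letters, also in 3, H2-Eb1, H2-DMb1 and H2-DMb2. In H2-DMa the CCNNGNAAC matches were in the first listed promoter, not in the one that holds ATTGG. In H2-DMb1 and H2-DMb2, 23 bases separate AACNNATG from ATTGG, and in H2-Eb1 22 bases. The windows of H2-DMb1 and H2-DMb2, neighbouring copies of the H2-DM beta chain, were identical at 56 of 65 bases, the closest of the 21 pairs of class II promoters compared. The RNA of H2-DMb1 was called lower and that of H2-DMb2 was not, and whether their changes differ was not tested. A match describes the letters of a window and is not evidence that a factor binds there.

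The classical chains carried most of the class II counts. H2-Ab1 (ENSMUSG00000073421.7, chromosome 17, 34476663 to 34488393, plus strand) encodes the beta chain of the I-A molecule. It was at 227, 220 and 221 CPM in DIO replicates 1, 4 and 5, and at 97.8, 90.2, 100 (replicate 4), 85.0 and 96.5 CPM in DIO + DHA replicates 1, 2, 4, 5 and 6. The lowest DIO library was therefore more than 2 times the highest DIO + DHA library. The means were 223 ± 3.47 CPM (SD of 3 mice) and 93.9 ± 6.23 CPM (SD of 5 mice), a log2 fold change of -1.24 with a standard error (SE) of 0.08 ( adjusted p = 3.8e-20 by edgeR).

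H2-Aa (ENSMUSG00000036594.16, chromosome 17, 34501718 to 34506797, minus strand) encodes the alpha chain that pairs with it. Its levels were 117, 131 and 130 CPM in the DIO libraries and 48.4, 46.9, 58.5, 49.7 and 47.8 CPM in the DIO + DHA libraries, in the same order of replicates. All 5 DIO + DHA values lay below all 3 DIO values, with DIO + DHA replicate 4 above the other four of its group. The mean fell from 126 ± 7.74 CPM (SD of 3 mice) to 50.3 ± 4.72 CPM (SD of 5 mice), with a log2 fold change of -1.34 (SE 0.09, adjusted p = 5.5e-19 by edgeR).

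H2-Eb1 (ENSMUSG00000060586.12, chromosome 17, 34524841 to 34535648, plus strand) encodes the beta chain of the I-E molecule. It was at 109, 107 and 102 CPM in the DIO libraries and at 35.5, 43.6, 40.0, 37.5 and 42.4 CPM in the DIO + DHA libraries. The fall from 106 ± 3.72 CPM (SD of 3 mice) to 39.8 ± 3.34 CPM (SD of 5 mice) had the most negative log2 fold change of the 8 tested class II genes, -1.42 (SE 0.09, adjusted p = 4.0e-19 by edgeR). Its alpha chain partner H2-Ea, which mice of the b haplotype such as C57BL/6 are known not to express, had 0 counts in all 8 libraries, which allows a level of up to 0.0914 CPM over the libraries together. Of the 12412 tested genes, 114 had a more negative log2 fold change than H2-Eb1, 131 than H2-Aa and 173 than H2-Ab1.

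**Figure D1:**
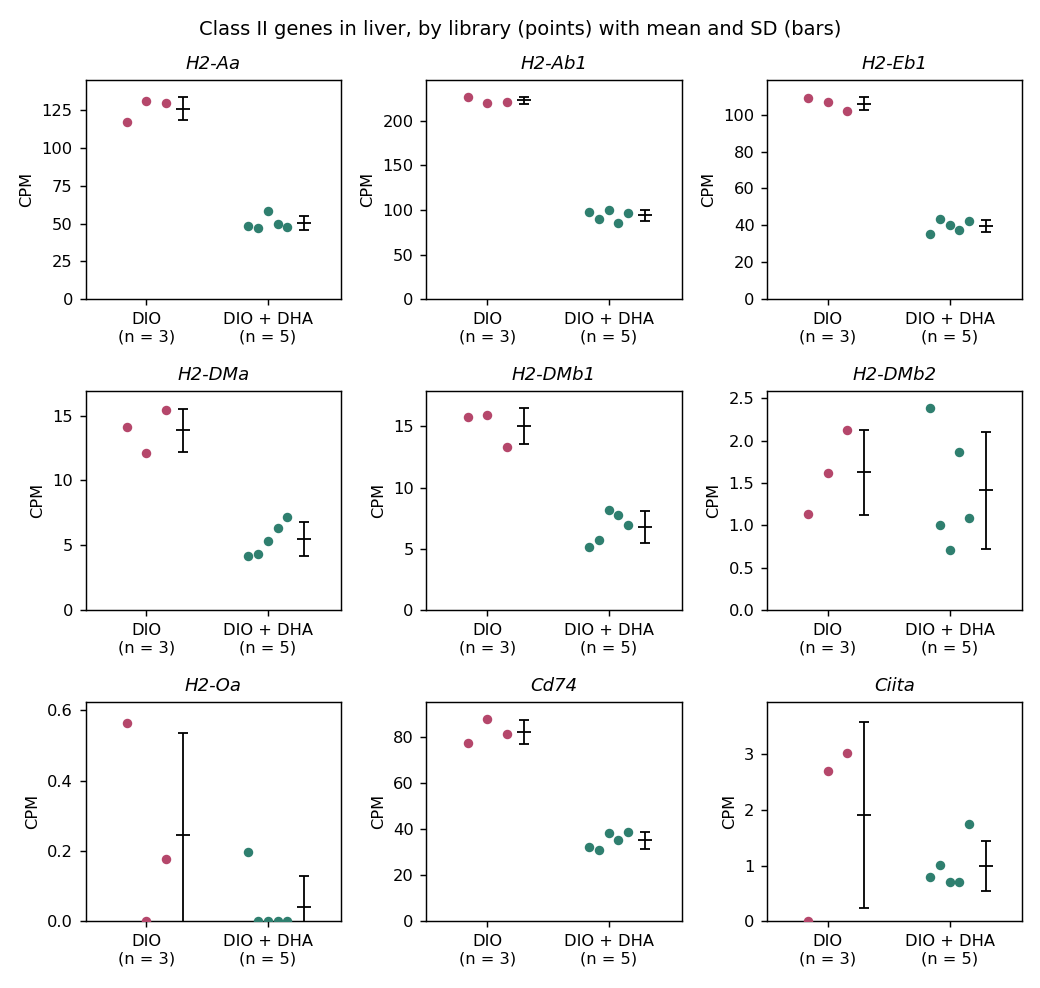
Level of each of the 9 genes in CPM (vertical axes, each from 0) in the 3 DIO and 5 DIO + DHA libraries, 1 point per mouse, in order of replicate number from left to right, with the group mean and SD as a bar. In H2-Aa, H2-Ab1, H2-Eb1, H2-DMa, H2-DMb1 and Cd74 no DIO + DHA point reaches a DIO point, while in H2-DMb2, H2-Oa and Ciita the groups overlap.

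Cd74 (ENSMUSG00000024610.16, chromosome 18, 60936920 to 60945724, plus strand), the invariant chain and also the surface receptor for the cytokine Mif, lies outside the class II region. Its levels were 77.6, 87.8 and 81.1 CPM in the DIO libraries and 32.3, 30.8, 38.5, 35.4 and 38.7 CPM in the DIO + DHA libraries. The highest DIO + DHA library was at 38.7 CPM and the lowest DIO library at 77.6 CPM. The mean fell from 82.2 ± 5.17 CPM (SD of 3 mice) to 35.1 ± 3.55 CPM (SD of 5 mice), a log2 fold change of -1.24 (SE 0.10, adjusted p = 1.1e-15 by edgeR).

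The chains of the peptide exchange factor H2-DM had far fewer counts than the classical chains. H2-DMa (ENSMUSG00000037649.11, chromosome 17, 34338515 to 34358075, plus strand) encodes its alpha chain, and it shares 10.4% of its exon bases with the neighbouring gene Brd2, so reads there were not assigned. It was at 14.1, 12.1 and 15.4 CPM in the DIO libraries and at 4.17, 4.36, 5.35, 6.32 and 7.21 CPM in the DIO + DHA libraries. The mean of 13.9 ± 1.69 CPM (SD of 3 mice) fell to 5.48 ± 1.29 CPM (SD of 5 mice), a log2 fold change of -1.32 (SE 0.20, adjusted p = 1.1e-06 by edgeR). H2-DMb1 (ENSMUSG00000079547.5, chromosome 17, 34372046 to 34379204, plus strand), one of the 2 genes for its beta chain, was at 15.8, 15.9 and 13.3 CPM in the DIO libraries. In the DIO + DHA libraries H2-DMb1 was at 5.16, 5.70, 8.21, 7.73 and 6.99 CPM. The groups of both H2-DM genes were thus apart, with wider relative spread than in the classical chains. For H2-DMb1 the log2 fold change was -1.14 (SE 0.19, adjusted p = 5.1e-06 by edgeR), from 15.0 ± 1.45 CPM (SD of 3 mice) to 6.76 ± 1.30 CPM (SD of 5 mice).

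H2-DMb2 (ENSMUSG00000037548.16, chromosome 17, 34362281 to 34370529, plus strand), the other beta chain gene, was low and did not separate the groups. Its values were 1.13, 1.62 and 2.13 CPM in the DIO libraries and 2.38, 1.01, 0.714, 1.87 and 1.09 CPM in the DIO + DHA libraries, so the highest value of all was in a DIO + DHA mouse. The log2 fold change of -0.22 (SE 0.45, adjusted p = 0.83 by edgeR) has a 95% interval of -1.12 to 0.69, and whether it differs from that of H2-DMb1 was not tested. Between transcripts of H2-DMb1 and H2-DMb2, 14.9% of the 80-base stretches of H2-DMb1 and 11.9% of those of H2-DMb2 also occur in another H2 gene, most of them in the other beta chain gene. A read from such a stretch aligns to both and was not counted. In the last 500 bases of the transcripts, where reads of a 3′-enriched library mostly fall, the shares were 18.6% for H2-DMb1 and 0% for H2-DMb2. The part of these shared stretches in the values of the 2 genes was not tested.

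H2-Oa (ENSMUSG00000024334.10, chromosome 17, 34311314 to 34314208, plus strand), the alpha chain of the H2-DM inhibitor found mainly in B cells, had 1, 0 and 1 counts in the DIO libraries. In the DIO + DHA libraries it had 1, 0, 0, 0 and 0 counts. With 3 counts in all it was below the count filter, and its CPM gave p = 0.196 in an exact permutation test, two-sided, over all 56 ways to place 3 of the 8 mice in the DIO group, where the smallest value possible is 0.0179. A difference in H2-Oa was not detectable at this depth, and it shares 22.8% of its exon bases with an overlapping gene. The beta chain gene of the same inhibitor, H2-Ob, had 9 counts over the DIO and 12 over the DIO + DHA libraries, and H2-Eb2, a further beta chain gene, 2 and 2. These 2 and H2-Ea, the other class II genes looked at, were below the filter too.

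Ciita (ENSMUSG00000022504.11, chromosome 16, 10297923 to 10346282, plus strand), the transactivator, was itself near the limit of detection. It had 0, 15 and 17 counts in the DIO libraries and 4, 3, 2, 3 and 8 counts in the DIO + DHA libraries. These are 0, 2.7 and 3.02 CPM against 0.793, 1.01, 0.714, 0.703 and 1.75 CPM, so 2 DIO libraries lay above all DIO + DHA libraries and the shallowest, DIO replicate 1, below them all. The log2 fold change of -1.21 (SE 0.48, 95% interval -2.17 to -0.25) did not pass, with an adjusted p of 0.0793 by edgeR. It was -1.47 without DIO replicate 1 (adjusted p = 0.0217) and -1.56 without DIO + DHA replicate 6 (adjusted p = 0.033), and its adjusted p was 0.363 with the Wald test of DESeq2. Ciita passed the count filter only through its counts in the DIO group.

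In all, 6 of the 8 tested class II genes were called lower, beside 7.28% of all tested genes, and 0 were called higher. At an unadjusted p under 0.05 the counts were 7 lower, with Ciita added, and 0 higher. The share of all tested genes at that threshold was not counted, and Ciita passed the count filter only through the DIO group. The same 6 had every DIO + DHA library below every DIO library, a pattern shown by 1102 (8.88%) of all tested genes, while 0 of the 8 had every DIO + DHA library above every DIO library, beside 9.54% of all tested genes. The same 6 also had a log-odds B above 0 with limma-voom, beside 3.2% of all tested genes that were lower by that criterion. For the 3 classical chains and Cd74, the coefficient of variation between mice of a group was 1.56% to 10.1%, against 3.70% to 8.78% from counting alone. In whole liver, fewer cells of a type and less RNA per cell cannot be told apart.

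The 6 called genes fell by similar amounts. The summed CPM of the 9 genes was 562, 579 and 569 in the DIO libraries and 227, 224, 252, 224 and 242 in the DIO + DHA libraries, so that the mean of the latter was 41.0% of the mean of the former. Within this sum, Cd74 took 14.4% ± 0.694 (SD of 3 mice) in the DIO and 15.0% ± 0.946 (SD of 5 mice) in the DIO + DHA libraries, and H2-Ab1 39.1% ± 1.15 and 40.2% ± 1.88. The log2 ratio of each of the other 7 tested genes to Cd74 was compared between the groups by the same exact permutation test. For H2-Ab1 the difference of the ratio was -0.03, for H2-Aa -0.10, for H2-Eb1 -0.19, for H2-DMa -0.07 and for H2-DMb1 0.11. H2-DMb2 had the smallest p of the 7, with a difference of 1.02 (exact p = 0.0714, adjusted p = 0.457), and Ciita had a difference of 0.92 (p = 0.196). None passed, which does not show that the genes moved by the same amount. Per kb of exon, the DIO means were 86.8 CPM for H2-Ab1, 54.6 for H2-Eb1, 48.9 for Cd74, 33.2 for H2-Aa, 8.91 for H2-DMb1 and 4.02 for H2-DMa. As reads came mostly from 3′ ends, such levels do not rank the genes by molecules.

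The plot of fold changes for the pathway shows the genes that act around these chains. Of the 10 tested genes of endosomal antigen processing, the proteases and helpers that prepare peptides and digest Cd74, 5 were called lower and 0 higher, with a median log2 fold change of -0.30. Ctss, cathepsin S, which makes the last cuts in the invariant chain, was at 123, 106 and 101 CPM in the DIO libraries and at 54.7, 56.6, 46.7, 46.1 and 52.4 CPM in the DIO + DHA libraries. With a log2 fold change of -1.08 (SE 0.09, adjusted p = 1.5e-14 by edgeR), it was the most changed of the list. Ctsb, the cathepsin with the most counts, fell from 1180 ± 71.8 CPM (SD of 3 mice) to 881 ± 53.2 CPM (SD of 5 mice), a log2 fold change of -0.42. The other called genes were Lgmn (-0.69), Ctsh (-0.38) and Sppl2a (-0.37), the last of which cleaves the membrane stump of Cd74. Ctsl, the cathepsin that does this work in thymic epithelium, was at 571 ± 74.7 and 566 ± 45.4 CPM, with a log2 fold change of -0.02 and an adjusted p of 0.928. Ctsz, Ctsd, Ifi30 and Cst3 also did not pass.

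**Figure D2:**
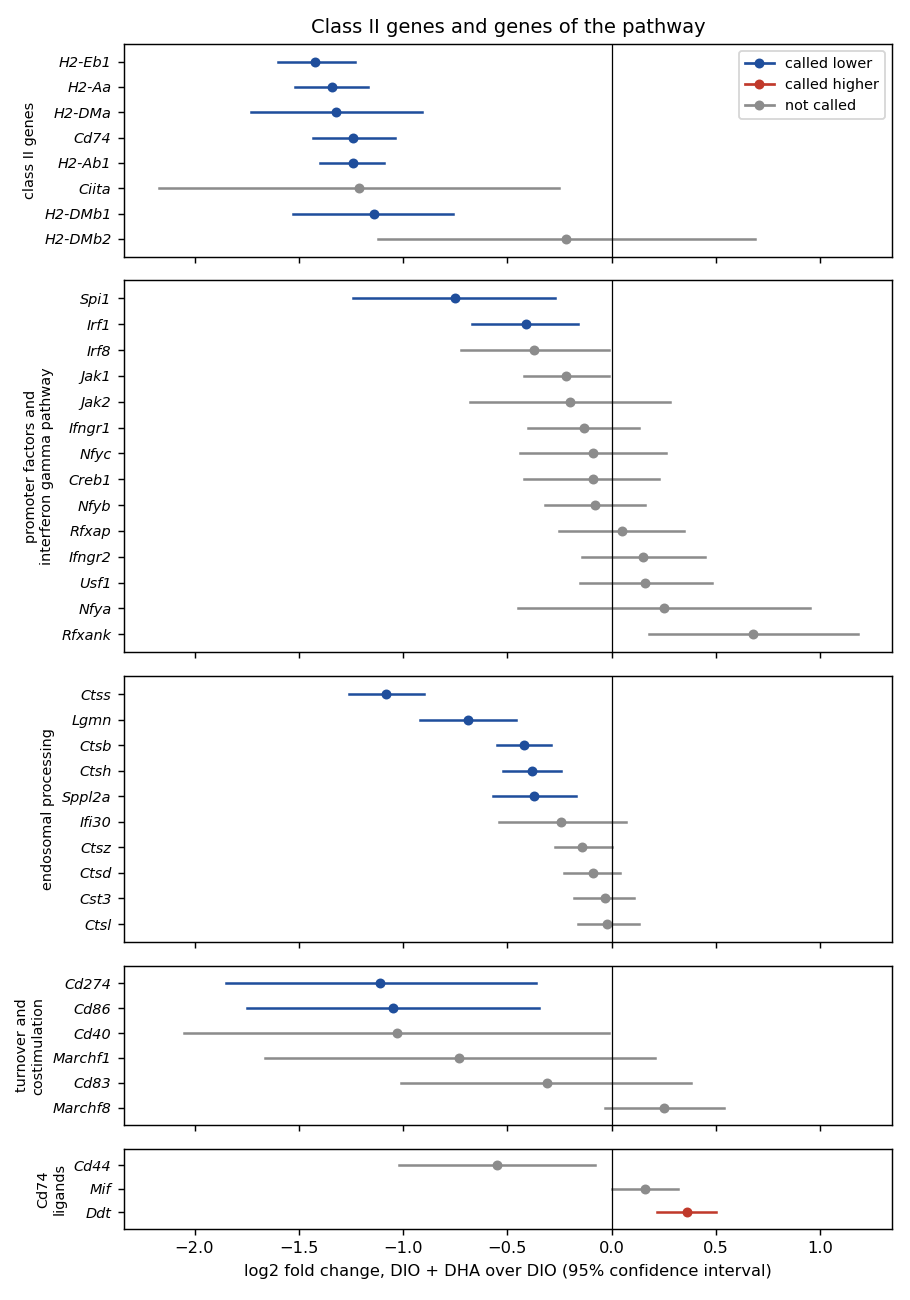
Log2 fold change of DIO + DHA over DIO (horizontal axis) with its 95% confidence interval for the 8 tested class II genes and for the tested genes of 4 lists of the pathway, 1 gene left out, coloured by whether edgeR's test called them. The 6 called class II genes lie between -1.42 and -1.14, and in the other lists only Ctss, Cd86 and Cd274 have called values under -1.

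Of 15 tested genes that bind class II promoters or carry the interferon gamma signal, the main known inducer of Ciita, 3 were lower and 0 higher, with a median of -0.09. Of the 3, 2 are described here. Spi1, the myeloid factor PU.1, had a log2 fold change of -0.75 (adjusted p = 0.0246), and Irf1, an interferon-induced factor that acts on Ciita, of -0.41 (adjusted p = 0.0187). The calls of Spi1 and Irf1 were lost without DIO replicate 4 (adjusted p = 0.0942 and 0.14) or DIO replicate 5 (0.133 and 0.0691), and that of Spi1 also without DIO + DHA replicate 6 (0.107). The tested subunits of the factors that hold Ciita at the promoters did not pass, and Rfx5, with 17 counts in all, was below the filter. Nfyb, Nfyc and Nfya of NF-Y had log2 fold changes of -0.08, -0.09 and 0.25, Rfxap and Rfxank of RFX 0.05 and 0.68, and Creb1 -0.09. Jak1, the kinase of the interferon receptor, was at 51.1 ± 2.29 and 43.9 ± 3.72 CPM (log2 fold change -0.22, adjusted p = 0.166). Ifng itself had 1 count in each of 2 DIO libraries and 0 elsewhere, so its level could not be compared.

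Of 6 tested genes for class II turnover, costimulation and recognition, 2 were lower and 0 higher, with a median of -0.88. That median includes Cd40 (-1.03, adjusted p = 0.193 by edgeR), which was not called. Cd40 passed the count filter only through its counts in the DIO group. Cd86, a costimulatory ligand shown beside class II, was at 3.63 ± 0.304 CPM (SD of 3 mice) and 1.69 ± 0.463 CPM (SD of 5 mice), a log2 difference of -1.05 (adjusted p = 0.0298 by edgeR). Cd274, the inhibitory ligand PD-L1, had a log2 fold change of -1.11 (adjusted p = 0.0314). With 1 library left out, Cd86 lost its call without DIO replicate 4 or 5 or DIO + DHA replicate 2 or 4, with adjusted p up to 0.15. Cd274 lost it in 6 of the 8 such fits, all but those without DIO + DHA replicate 2 or 6, with adjusted p up to 0.0915. Marchf8, a ubiquitin ligase that removes class II molecules from the surface, was at 18.3 ± 1.85 and 22 ± 2.02 CPM (log2 fold change 0.25, adjusted p = 0.262), and Cd83, which opposes such removal, did not pass. Among the ligands and partners of Cd74 as a receptor, Ddt, the homologue of Mif, rose from 444 ± 22.6 to 570 ± 49.7 CPM (log2 fold change 0.36, adjusted p = 8.5e-05), opposite in direction to Cd74. Mif was at 128 ± 7.78 and 144 ± 9.26 CPM (0.16, adjusted p = 0.199), and the co-receptor Cd44 had a log2 fold change of -0.55 (adjusted p = 0.11).

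Class I presentation shows peptides from inside the cell on nearly all cells. Of its 20 tested genes, 11 were called lower, 0 higher and 9 did not pass, with a median of -0.29. H2-Q10, a secreted class I chain of hepatocytes, was at 2720 ± 136 and 2780 ± 134 CPM (log2 fold change 0.03, adjusted p = 0.831), H2-K1 fell by 0.23 and B2m, the light chain, by 0.26 on the log2 scale. The calls of H2-K1 and B2m were lost without DIO replicate 1 (adjusted p = 0.164 and 0.0895) or DIO replicate 4 (0.0847 and 0.233). H2-K1 lost it also without DIO + DHA replicate 5 (0.0577), and B2m without DIO + DHA replicate 2 (0.055). Psmb8, a subunit of the immunoproteasome, had the largest change of the list, from 102 ± 12.1 to 57.8 ± 5.72 CPM (log2 fold change -0.84, adjusted p = 7.2e-11). The log2 ratio of H2-Ab1 to B2m was -3.08, -3.26 and -2.84 in the DIO libraries and -3.95, -4.08, -3.88, -4.07 and -4.23 in the DIO + DHA libraries. Its difference of -0.98 had p = 0.0179 by the exact permutation test, the smallest possible, and an adjusted p of 0.0358 over the 10 ratios of this kind. For Cd74 to B2m the difference was -0.96, with the same p-values.

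Genes of other functions lie among the class II genes. The 7 members on chromosome 17 span 34311314 to 34535648, and with 200 kb on either side the stretch held 67 genes, of which 24 were tested. Of the 18 that are not among the 9 genes, 5 were called lower and 1 higher, with a median log2 fold change of -0.16. The 5 were Psmb8, Psmb9 (-0.74), Tap1 (-0.46), Tapbp (-0.37) and H2-K1, all of class I presentation, so that position and function cannot be told apart, and the higher one was the ribosomal gene Rps18 (0.20, adjusted p = 0.0273). Tap1 lost its call without DIO replicate 4 (adjusted p = 0.148), and Rps18 without DIO replicate 1 or 4 or DIO + DHA replicate 4 or 6 (up to 0.122). Brd2, between H2-Oa and H2-DMa and not a presentation gene, was at 51.6 ± 6.31 and 51.1 ± 2.95 CPM (log2 fold change -0.04, adjusted p = 0.867). Tap2, next to Psmb8, did not pass (-0.32, adjusted p = 0.37).

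**Figure D3:**
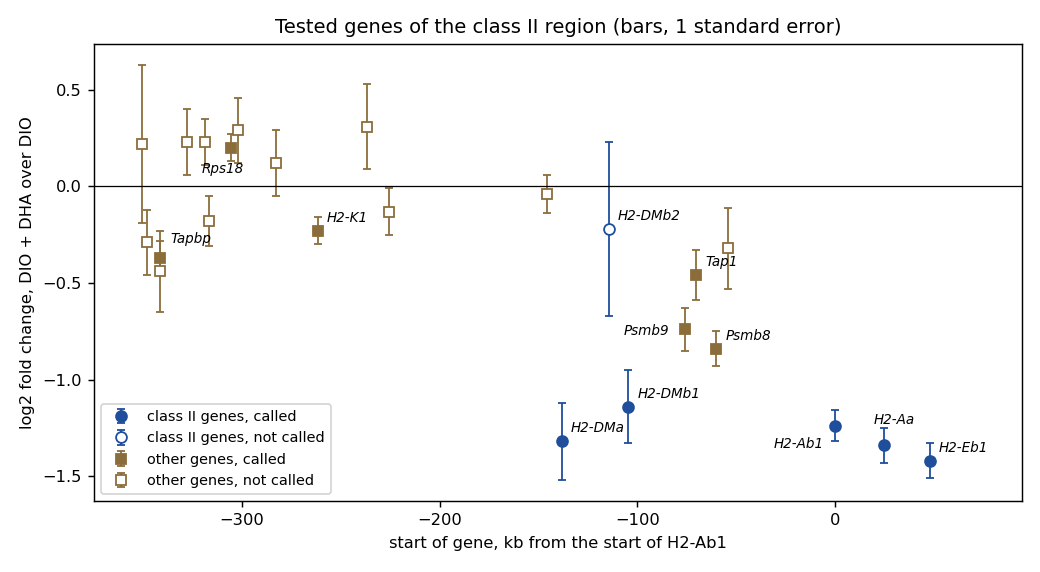
Log2 fold change of DIO + DHA over DIO (vertical axis, bars of 1 standard error, SE) of the 24 tested genes of the class II region against the distance of their start from that of H2-Ab1 in kb (horizontal axis). Class II genes are circles and other genes squares, filled where edgeR's test called them. The 5 filled circles lie under -1, while the other genes lie between -0.84 and 0.31.

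Markers of macrophages, leucocytes, T cells and sinusoidal endothelium were in part lower too, while the summed B cell, dendritic cell and monocyte markers overlapped between the groups. Of 15 tested macrophage and Kupffer cell markers, 11 were lower and 1, Marco, higher, with a median log2 fold change of -0.76. Their summed CPM was 897 to 1000 in the DIO and 518 to 556 in the DIO + DHA libraries, and C1qb (-1.03) and Lyz2 (-0.72), the most abundant of the list, were both called. Cd68 (-1.36, adjusted p = 3.3e-10 by edgeR) and Cd5l (-1.12), the most negative of the same list, were also called, beside -1.24 for H2-Ab1. Timd4 (0.19), Cd163 (-0.27) and Mertk (-0.33) of that list did not pass. With DESeq2, and with limma-voom B above 0, 9 of the 15 were lower in place of 11. Adgre1 of this list lost its call in 5 of the 8 fits that leave out 1 library (adjusted p up to 0.292). The summed CPM of the class II genes was 0.599, 0.645 and 0.568 times that of the macrophage list in the DIO libraries and 0.426, 0.431, 0.472, 0.424 and 0.436 times in the DIO + DHA libraries. The class II share was thus lower in every DIO + DHA library also relative to these markers. Of 5 tested leucocyte markers 4 were lower, with summed CPM of 109 to 126 and 68.6 to 81.5, namely Laptm5 (-0.59), Cd52 (-0.81), Ptprc (-1.06) and Itgb2 (-0.94), the last lost without DIO replicate 5 (adjusted p = 0.329). Of 6 tested T cell markers 2 were lower, with sums of 19.5 to 23.6 and 9.99 to 15.1 CPM. They were Cd8a (-2.09, which passed the count filter only through the DIO group) and Cd3g (-0.87, lost without DIO replicate 4 with an adjusted p of 0.215). Cd3d, next to Cd3g in abundance, did not pass (-0.52, adjusted p = 0.278). Of 9 tested sinusoidal endothelial markers 3 were lower, with sums of 221 to 240 and 163 to 187 CPM. They were Clec4g (-0.59), Lyve1 (-1.08) and Mrc1 (-0.51). The call of Mrc1 was lost without DIO replicate 4 or 5 or DIO + DHA replicate 1, with adjusted p up to 0.12. Stab2, next to Clec4g in abundance, did not pass (-0.32, adjusted p = 0.0848).

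B cell and dendritic cell markers were near the limit of detection. Of the 11 B cell markers 4 could be tested, 0 were lower and 1, Ebf1, was higher (1.16, adjusted p = 0.0364), a call lost in 6 of the 8 fits that leave out 1 library, all but those without DIO + DHA replicate 2 or 5 (adjusted p up to 0.256). Their sums of 5.06 to 10.3 CPM in the DIO and 7.37 to 17.5 CPM in the DIO + DHA libraries overlapped. The defining markers Cd79a and Cr2 had 0.361 CPM or less in every library. Of 4 tested dendritic cell markers 1, Itgax, was lower (-1.94, adjusted p = 0.0102), a call lost without DIO replicate 4 (0.0803) or 5 (0.0819). Zbtb46, the most abundant of the list, had a log2 fold change of 0.28 (adjusted p = 0.618) and did not pass. Batf3 (-0.96, adjusted p = 0.122) and Clec9a (-0.72, adjusted p = 0.376) did not pass either. Itgax, Batf3 and Clec9a passed the count filter only through their counts in the DIO group. The sums of that list, of 11.2 to 15.1 and 4.99 to 13.1 CPM, overlapped. Of 5 monocyte markers 0 were called by edgeR, DESeq2 or limma-voom, with sums of 14.7 to 19.1 and 10.9 to 15.7 CPM. At an unadjusted p under 0.05, where the share of all tested genes was not counted, 1 was lower. Plac8 (-0.45, adjusted p = 0.161) and Ly6c2 (0.49, adjusted p = 0.514) were the most abundant of that list. The part of each cell type in the class II difference was not tested, and the ratios that follow set single genes against each other.

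**Figure D4:**
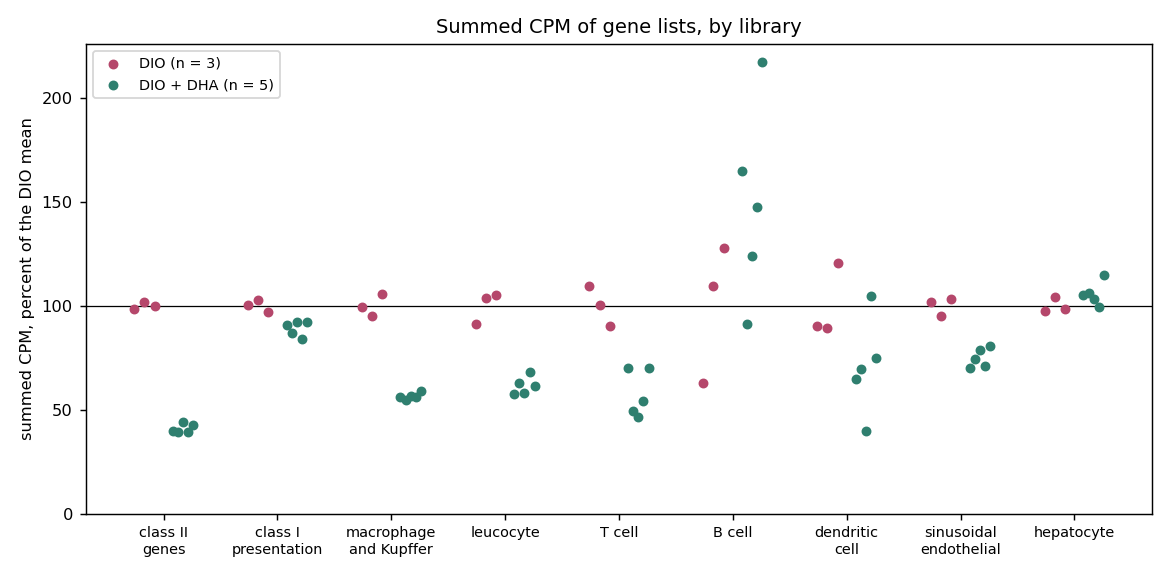
Summed CPM of the class II genes and of 8 other lists in each library, as a percent of the mean of the DIO libraries (vertical axis, from 0), with 3 DIO and 5 DIO + DHA points per list. The class II points of the DIO + DHA group lie lowest of the lists in which the groups are apart, under those of the macrophage and leucocyte lists, while the groups overlap for B cell, dendritic cell and hepatocyte markers.

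H2-Ab1 and Cd74 were also set against Csf1r and Adgre1 of macrophages, Ptprc of leucocytes and Cd79b of B cells. Cd68 and genes of dendritic or sinusoidal endothelial cells were not used in this way. Relative to Csf1r, the growth factor receptor of macrophages, the log2 ratio of H2-Ab1 was 2.43, 2.48 and 2.32 in the DIO libraries and 2.19, 1.86, 2.11, 1.87 and 2.08 in the DIO + DHA libraries. The difference of -0.39 was past the spread between mice (p = 0.0179 by the exact permutation test, adjusted p = 0.0358 over 10 ratios), and the groups did not overlap. For Cd74 to Csf1r the difference was -0.36 (exact p = 0.0357, adjusted p = 0.0595). Relative to Adgre1, the macrophage marker F4/80, the differences were -0.50 for H2-Ab1 (exact p = 0.161) and -0.47 for Cd74 (p = 0.25). Adgre1 had 15.8 CPM in DIO replicate 1 and 6.49 and 8.34 CPM in the other DIO libraries, and without that replicate the differences were -0.84 and -0.86. Without DIO replicate 4 they shrank to -0.25 and -0.17, so they depend on single libraries in both directions. Relative to Ptprc, the pan-leucocyte marker CD45, the differences were -0.20 (exact p = 0.536) and -0.18 (p = 0.607). Relative to Cd79b of B cells they were -1.53 and -1.50 (exact p = 0.0179 and adjusted p = 0.0358 for both). As Cd79b had 1 count in DIO replicate 1, the 2 values became -0.84 and -0.87 without it, with the groups still apart. Cd79b itself did not pass (log2 fold change -0.21, adjusted p = 0.769 by edgeR), so these ratios mainly restate the falls of H2-Ab1 and Cd74.

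**Figure D5:**
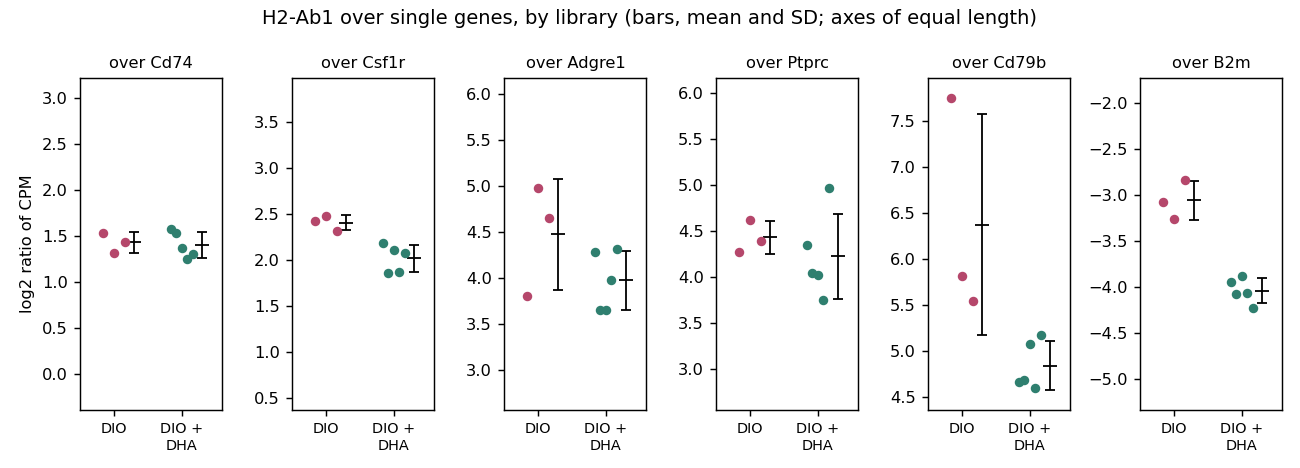
Log2 ratio of the CPM of H2-Ab1 to that of Cd74, Csf1r, Adgre1, Ptprc, Cd79b and B2m (vertical axes of equal length, with a prior count of 2) in each DIO and DIO + DHA library, with mean and SD. The groups overlap over Cd74, Adgre1 and Ptprc and are apart over Csf1r, Cd79b and B2m.

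The libraries fit the labelled tissue, with summed hepatocyte markers of 82200 to 88000 CPM in the DIO and 83700 to 96900 CPM in the DIO + DHA libraries, led by Alb and Ttr, which did not pass. Of the 9 tested hepatocyte markers 2 were higher, Apoa1 (0.52) and Tat (0.24, lost without DIO + DHA replicate 4 with an adjusted p of 0.0595), and 2 lower, Fgb (-0.51) and Hnf4a (-0.53). Transcripts of other tissues also moved with the groups. All 14 tested skeletal muscle genes were higher in the DIO + DHA libraries, with sums of 33.2 to 39.9 and 1310 to 1420 CPM, led by Acta1 and Tnnt3. Of these, Tnnc2 lost its call in 3 of the 8 fits that leave out 1 library (adjusted p up to 0.186 by edgeR). Of 6 tested genes of stratified squamous epithelium 5 were higher, with 4.61 to 7.88 and 79.4 to 91.3 CPM, led by Krtdap and Krt4. With levels this low in the DIO libraries, genes could pass the count filter through the DIO + DHA group alone. Scaling the libraries without the muscle and squamous epithelium genes left the log2 fold changes of the 6 called class II genes at -1.42 to -1.14. Cholangiocyte markers, led by Spp1 and Sox9, had sums of 57.3 to 63.6 and 56.9 to 69.6 CPM, with 1 of 5, Sox9, higher, a call lost in 5 of the 8 fits that leave out 1 library (adjusted p up to 0.163). Stellate cell and fibroblast markers, led by Dcn and Reln, had 236 to 254 and 219 to 235 CPM, with 1 of 7, Lrat, lower and 1, Des, which muscle also expresses, higher.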

How the data were processed

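Poly(A) RNA of 8 livers was sequenced by the authors with a method adapted from SCRB-seq, whose barcoded primers with molecular identifiers give 3′-enriched cDNA. After trimming, they used STAR 2.7.9a to align the reads to GRCm39 and counted exonic reads of GENCODE mouse release 33 genes with featureCounts 1.6.0. The deposited values are raw counts per gene. Per the file headers, counting used neither strand nor multi-mapping reads, and reads in stretches shared by overlapping genes were left out. Collapse of the molecular identifiers is not stated, and floors cover counting error only.

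Groups and replicate numbers came from the sample labels. Separate mice are named, so p-values measure the spread between mice. Gene names came from GENCODE release 39 of the same build. As in the study's methods, genes with a count under 5 in over 50% of the libraries of both groups were left out. After TMM scaling, edgeR 4.0.16 (R 4.3.3) tested the counts by quasi-likelihood, with Benjamini-Hochberg adjustment over all 12412 tested genes. The script was tested on simulated data. The study's own test, limma-voom (limma 3.58.1) with B above 0, and the Wald test of DESeq2 1.42.0 were alternatives, beside other scalings, filters, the replicate number as a block and leaving out each library. Ratios between genes were taken on log2 CPM (prior count 2) and an exact permutation test, two-sided, with 56 possible placements of the mice, adjusted over the 7 ratios to Cd74 and the 10 to other genes. Floors are 3 counts over all libraries. Promoters came from RefSeq, and tables were handled with Python 3.11.15.

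The 9 genes and all lists were chosen with earlier results of these data known, so their counts are read against the share of all tested genes. Named are the 9 genes, of each pathway list the 3 most abundant tested genes and the called gene of largest change, called genes of the class II region, the 2 most abundant genes of each marker list and the 5 genes of most similar pattern. The list of promoter factors and interferon gamma signalling holds 1 called gene whose values are not reported here, though its counts of calls include it. Other names were chosen after their values were seen. Of 10 hepatocyte markers, 9 matched a gene. Libraries held 1723800 to 5690347 counts. Replicate numbers 1, 4 and 5 occur in both groups but mark different mice, and same-numbered libraries did not deviate together (correlations of -0.007, -0.019 and -0.046 over 6224 genes).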

Additional observations from a re-analysis of the deposited data

Results flagged for a closer look

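Over 45 values looked at within the 5 DIO + DHA libraries, 6 had a library that lay apart from the other four by more than 0.71 of the group's range. For normally distributed values such a gap has a rate of about 1 in 20. The 45 values share genes and libraries and some are near 0 counts, so the 6 are not read as an excess. H2-Aa was at 58.5 CPM in DIO + DHA replicate 4 and at 46.9 to 49.7 CPM in the others. H2-Oa was at 0.198 CPM in DIO + DHA replicate 1, which is 1 count, and at 0 in the others. Ciita was at 1.75 CPM in DIO + DHA replicate 6 and at 0.703 to 1.01 CPM in the others. The log2 ratio of H2-Eb1 to Cd74 was 0.49 in DIO + DHA replicate 2 and 0.05 to 0.13 in the others. The log2 ratio of Cd74 to Ptprc was 3.65 in DIO + DHA replicate 6, which had the lowest Ptprc level, and 2.50 to 2.76 in the others. The summed CPM of the list of class II turnover, costimulation and recognition was 26.8 in DIO + DHA replicate 4 and 31.7 to 33.2 in the others.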

How the results depend on the processing

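The number of class II genes called lower was 6 under all 10 other scalings, tests, filters and the replicate block, and 6 to 7 when 1 library was left out (7, with Ciita, without DIO replicate 1 or DIO + DHA replicate 6). The log2 fold changes of the 6 called genes stayed between -1.49 and -1.05 in all 18 alternatives. Neither H2-DMb2 nor Ciita could be tested with edgeR's filterByExpr filter or with at least 10 counts in every library. H2-DMb2 turned to 0.03 without DIO replicate 5, with a range of -0.51 to 0.03 over the left-out libraries, and Ciita ranged from -1.56 to -0.90. With limma-voom B above 0 fewer genes were called, 860 in place of 1883 over all genes, 5 in place of 11 for class I presentation and 7 in place of 11 in the class II region. The list of promoter factors and interferon gamma signalling had 1 called gene in place of 3 with DESeq2 and with limma-voom B above 0, and 1 to 4 with 1 library left out, where Rfxank was called higher without DIO replicate 1 or DIO + DHA replicate 2 or 6. The list of turnover, costimulation and recognition had 0 in place of 2 with DESeq2, with limma-voom B above 0, without a filter and with at least 10 counts in every library (1 gene testable), and 0 to 2 with 1 library left out. Class I presentation had 7 to 11, the lowest without DIO replicate 4. Beyond the smaller number of genes testable under a filter, the cause of these changes was not tested.

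With the replicate number as a block, 6 class II genes were called lower, 1 gene in place of 3 was called among promoter factors and 1 in place of 2 among turnover genes. Cd3g, Itgax, Ebf1, Sox9 and Lrat lost their calls (adjusted p = 0.123, 0.114, 0.256, 0.052 and 0.0527 by edgeR). So did the markers Itgb2, Adgre1 and Fcgr1 (0.0921, 0.0566 and 0.0526), and Tap1, Rps18 and Erap1 (0.0912, 0.052 and 0.348). With DESeq2 Cd3g, Itgax, Ebf1 and Sox9 were not called either. The same held for Itgb2, Mrc1, Adgre1 and Fcgr1 (adjusted p = 0.0735, 0.099, 0.0849 and 0.0569 by its Wald test). H2-K1, Erap1 and the muscle gene Tnnc2 were not called by it either (0.0635, 0.137 and 0.106). The smallest p that 3 against 5 mice allow in a permutation test is 0.0179, and H2-DMb2, H2-Oa and Ciita, with 17 counts or fewer in every library, had the least depth of the 9 genes.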

Other observations

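Within the groups, the deviations of the libraries from their group means were shared to differing degrees among the class II genes. Over 8 libraries, Pearson's r of these deviations in log2 CPM was 0.73 for H2-DMb1 and Cd74, 0.62 for H2-Aa and Cd74, 0.33 for H2-Aa and H2-Ab1 and -0.80 for H2-Eb1 and H2-DMb2. The points share libraries and depth, and most of these genes vary little beyond counting error within a group, so the values are a description. The genes whose deviations followed the mean deviation of the 8 tested class II genes most closely, of 6224 compared, were Psme2b (r = 0.997), Tnfaip2 (0.967), Ufd1 (0.965), Nae1 (0.963) and Uhmk1 (0.962). None of these 5 differed between the groups past the threshold, with log2 fold changes of -0.26 to 0.21. That mean deviation is set largely by Ciita, whose count of 0 in DIO replicate 1 is the widest deviation of the 8 genes.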
